A study of Mus musculus with 10 samples.

Results

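Cutting of messenger RNA at ACA sites was compared between embryoid bodies (EB) with and without Mettl3, over every listed site that had a cleavage efficiency in both EB columns. These were 855 of the 1626 sites in the deposited table. EB are aggregates of embryonic stem cells that leave the pluripotent state in suspension. The mouse stem cells, first expanded on feeder fibroblasts, had been passaged on gelatin in N2B27 medium free of serum, with LIF and the inhibitors CHIR99021 and PD0325901, and were then grown in suspension for 9 days in serum medium without these factors. The labels describe 2 wild-type (WT) and 2 Mettl3 knockout (KO) EB libraries of polyA RNA, with the knockout genotype spelled Metll3-/-. They do not say how many knockout lines were used or whether the libraries came from separate cultures. The table gives 1 value per site and genotype for EB, so no value below carries an error between libraries and no test between the genotypes could be made. Embryonic stem cells (ESC) of both genotypes, with 3 libraries each, are used to say whether a site also had a stem cell value, and their values are given beside some EB values for comparison.

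As background, Mettl3 is the catalytic subunit of the complex that writes N6-methyladenosine (m6A), the most common internal modification of messenger RNA, at an A within a DRACH consensus (D is any base but C, R is A or G, H is any base but G). MazF, an endoribonuclease from bacteria, cleaves ACA but not its methylated form (m6A)CA, so less cutting goes with more methylation where this enzyme is used. The labels do not name the enzyme of this study. m6A acts through reader proteins such as those of the YTH family, which direct transcripts to decay, translation or export. Stem cells that lack Mettl3 are known to be slow to leave the pluripotent state, which makes differentiated aggregates a stage of interest.

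The sites are shown here as the 11 bases of the deposited table, 5′ to 3′, with the core of 5 bases that ends in ACA in capitals. The first set had the widest gaps between the columns or no stem cell difference, and the results turn on it. A site has a stem cell difference here when both ESC columns give a value, whatever the size of the difference.

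Ranbp2: gatGGACAgta

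Golph3: aatGGACAagc

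Csnk1d: aatGGACAggc

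Chac1: ggtGGACAtca

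Mga: attGGACAcaa

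Heca: aaaGGACAcag

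Vezf1: cagGGACAgct

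Spred1: acaAGACAgta

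BC048403: taaAGACAgaa

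The second set holds sites of other behaviour, shown because their cores are the same: Trim25 was cut alike in both columns, Zfp36l1 was listed as uncut in both, and Tcf3, Adk and Snx3 were cut less in KO.

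Trim25: tatGGACAaag

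Zfp36l1: gctGGACAgcc

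Tcf3: agaGGACAaga

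Adk: atcGGACAtca

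Snx3: agcGGACAccc

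The second set was chosen for its core, so the sets cannot tell how cores go with the gap. GGACA stands in sites that went from almost uncut to almost fully cut, in sites with equal values and in sites lower in KO. The authors' table puts Trim25, Tcf3 and Snx3 in its low confidence class, Adk in the intermediate and Zfp36l1 in the high class. Counts by core and by class over all sites are given below.

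A cleavage efficiency is read here as the share of a site's RNA that was cut, from 0 to 1, after its name and range, since its formula is not given in the sources consulted. Over the 855 sites the median was 0.547 in WT and 0.818 in KO. A site is called higher or lower here when KO and WT differed by at least 0.10. By that size 358 sites (41.9%) were higher in KO and 51 (5.96%) were lower, and a gap of at least 0.5 was present at 111 sites, all higher in KO. The column medians differ by 0.271, and with each median subtracted 20.0% of sites were higher and 66.4% lower by the same size, so every direction below is that of the values as deposited. The site just inside the limit was in Kifc1, at 0.101 higher, and the nearest upward site outside it with a gene was in Ahnak, at 0.0990. The sites higher in KO lay in 283 of the 673 genes that could be named and those lower in 45, with 1 gene in both groups. At 288 sites the columns were within 0.05 of each other. Of the 855 sites, 230 were cut to at least 0.8 in both columns and 62 to less than 0.1 in both, 13 of them listed at 0 in both. A site above 0.9 in WT, of which there were 117, cannot be higher by 0.10, so the share of higher sites depended on the WT level: it was 71.0% of 131 sites between 0.2 and 0.4 in WT and 16.2% of 136 sites between 0.8 and 0.9.

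**Figure D1:**
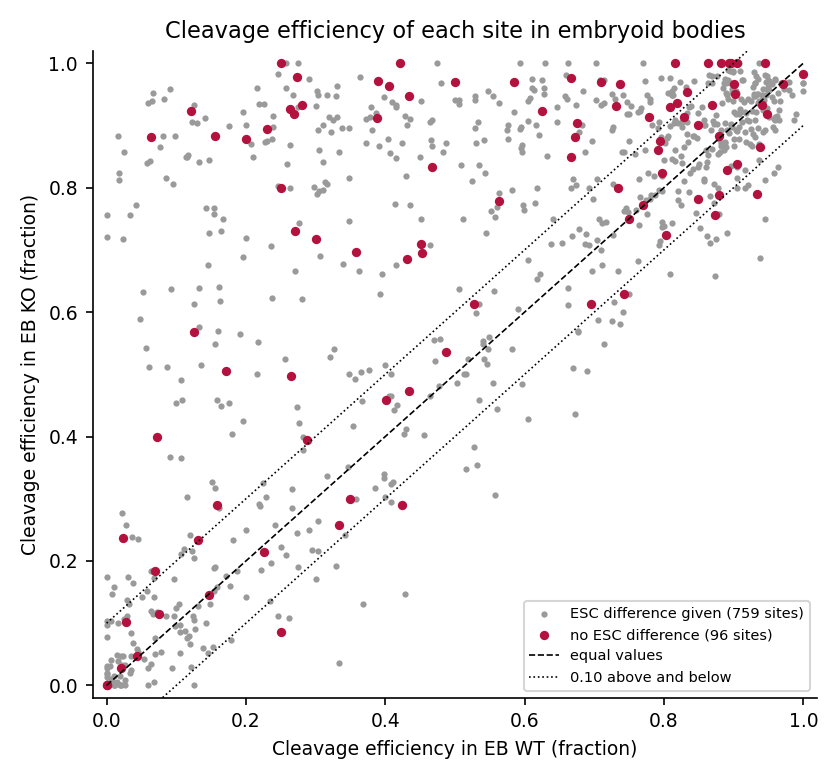
Cleavage efficiency (fraction) in EB WT (horizontal axis) and in EB KO (vertical axis), each point being a site. The 759 sites with a value in both stem cell columns are in grey and the 96 that lack at least 1 in red. The dashed line marks equal values and the dotted lines a gap of 0.10; 358 points lie on or above the upper dotted line and 51 on or below the lower one.

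Without libraries to compare, the size of a gap can be set only against another pair of columns. Between the KO columns of EB and ESC, 95% of 258 sites with a KO level from 0.2 to 0.8 differed by no more than 0.219, and of 452 sites with a level of at least 0.8 by no more than 0.125. These gaps hold measurement error and any change with the stage together. A gap of KO over WT beyond 0.219 was present at 255 of the 855 sites (29.8%), and one of that size in the other direction at 6 (0.702%).

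The sites with the widest gaps lay in genes of many functions. A site in Ranbp2, a nucleoporin of the cytoplasmic face of the nuclear pore, was at 0.0588 in WT and 0.935 in KO (coding sequence (CDS), exon 20 of 29, chromosome 10, position 57942639, plus strand of mm9). Golph3, which encodes a phosphoinositide-binding Golgi protein, was at 0.0654 and 0.939 (CDS, exon 4 of 4, chromosome 15, position 12279348, plus strand). Mga, a transcription factor that pairs with MAX, had 0 in the WT column and 0.756 in KO (CDS, exon 24 of 24, chromosome 2, position 119790578, plus strand). All 3 sites lay over 200 nt from the nearest exon junction, at 928, 225 and 1150 nt.

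Several genes of RNA processing, secretion and the cell surface stood in the same range. Rrbp1, a ribosome-binding protein of the endoplasmic reticulum, had a site at 0.142 in WT and 0.912 in KO. Cpsf2, a subunit of the cleavage and polyadenylation specificity factor, was at 0.216 and 0.961. Spop, a substrate adaptor of cullin ubiquitin ligases, was at 0.117 and 0.852. These sites were low in WT and near fully cut in KO. Sulf2, an extracellular enzyme that removes sulfate from heparan sulfate, was at 0.116 and 0.850. B3gnt2, a glycosyltransferase of N-acetyllactosamine chains, was at 0.0426 and 0.772. Rdx, which encodes radixin, a linker of actin to the membrane, was at 0.196 and 0.921. Tanc1 was at 0.258 and 1, and Btbd2 had 0 in the WT column and 0.721 in KO. The 30 genes with the widest gaps ran from 0.886 (BC048403) down to 0.721 (Btbd2), and the WT value of each was at most 0.258. Gaps of this size on a scale from 0 to 1 require a low WT value, so that level follows from the choice of sites.

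**Figure D2:**
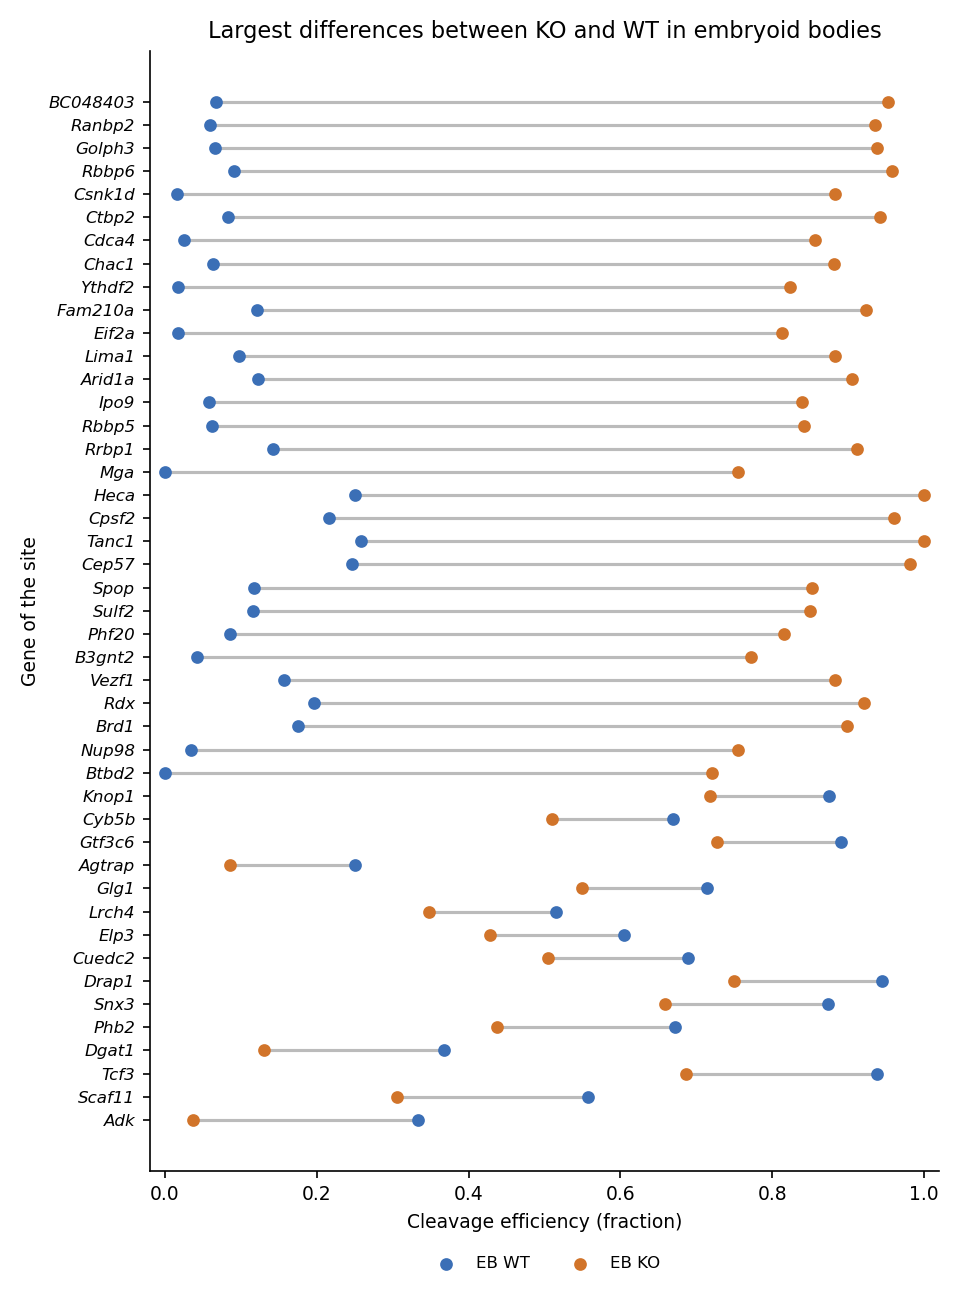
Cleavage efficiency (fraction, horizontal axis) in EB WT (blue) and EB KO (orange) for 45 sites, 1 per gene (vertical axis): the 30 with the largest gap upward in KO and, below them, the 15 with the largest gap downward. The upper sites lie below 0.3 in WT, as gaps of their size require on a scale from 0 to 1. KO minus WT at the lower sites runs from −0.157 to −0.297.

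The bases around the core went with the size of the gap. GGACA sites were higher at 269 of 524 (51.3%) and AGACA sites at 89 of 331 (26.9%). The base before the core, 3 before the A, divided each of these further. TGGACA sites were higher at 117 of 177 (66.1%), with a median gap of 0.269 (interquartile range over sites 0.0404 to 0.532). AGGACA sites were higher at 93 of 171 (54.4%, median 0.118) and CGGACA at 23 of 55 (41.8%, median 0.0738). GGGACA sites were higher at 36 of 121 (29.8%, median 0.0195), which is close to the share of AGACA sites. Among AGACA sites, TAGACA had 11 of 23 (47.8%) higher and none lower, and CAGACA had 19 of 94 (20.2%) higher and 10 lower. Sites with T before the core thus had the highest share with either core. An A at 4 bases before the A went with 158 of 286 sites higher (55.2%), against 84 of 273 (30.8%) for a G there.

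On the 3′ side, a T directly after ACA went with 55.8% of 181 sites higher (median gap 0.152), and the other bases with 36.0% to 41.6%. TGGACA followed by T, the sequence of the Chac1 site, had 35 of 42 sites higher (83.3%), none lower and a median gap of 0.454. The base after ACA also went with how well a site was cut without Mettl3. Sites with G there had a median of 0.557 in KO, against 0.890 with T and 0.906 with A. The gap can be no larger than the KO level, so it was also taken relative to KO, as 1 minus WT divided by KO, over the 725 sites cut to 0.20 or more in KO. The median of this relative reduction was 0.476 for TGGACA, 0.240 for AGGACA, 0.238 for CGGACA and 0.0897 for GGGACA, and it was 0.0385 for AGACA sites as a whole. The order of the 4 GGACA contexts was the same on this scale, while G after ACA, at 0.149, moved above A and C, at 0.0603 and 0.0811.

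The share of higher sites also differed with the position in the transcript. Positions are those of the matched GENCODE transcripts, for the 742 sites with a gene. Within 25 nt of the nearest exon junction 8 of 72 sites were higher in KO (11.1%), and from 26 to 50 nt 6 of 71 (8.45%). From 51 to 100 nt 28 of 108 were higher (25.9%), between 100 and 200 nt 58 of 136 (42.6%), between 200 and 400 nt 96 of 162 (59.3%) and beyond 400 nt 106 of 181 (58.6%). Read against the background of 41.9%, sites within 50 nt lay far below it and sites beyond 200 nt above it. Close to a junction the WT column itself was high, with medians of 0.860 within 25 nt and 0.794 from 26 to 50 nt, against 0.384 between 200 and 400 nt. The KO medians of these 3 groups were closer together, at 0.882, 0.780 and 0.793. The bin from 26 to 50 nt also held 15 of the 47 named sites that were lower in KO (21.1% of its sites, against 5.96% of all sites).

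**Figure D3:**
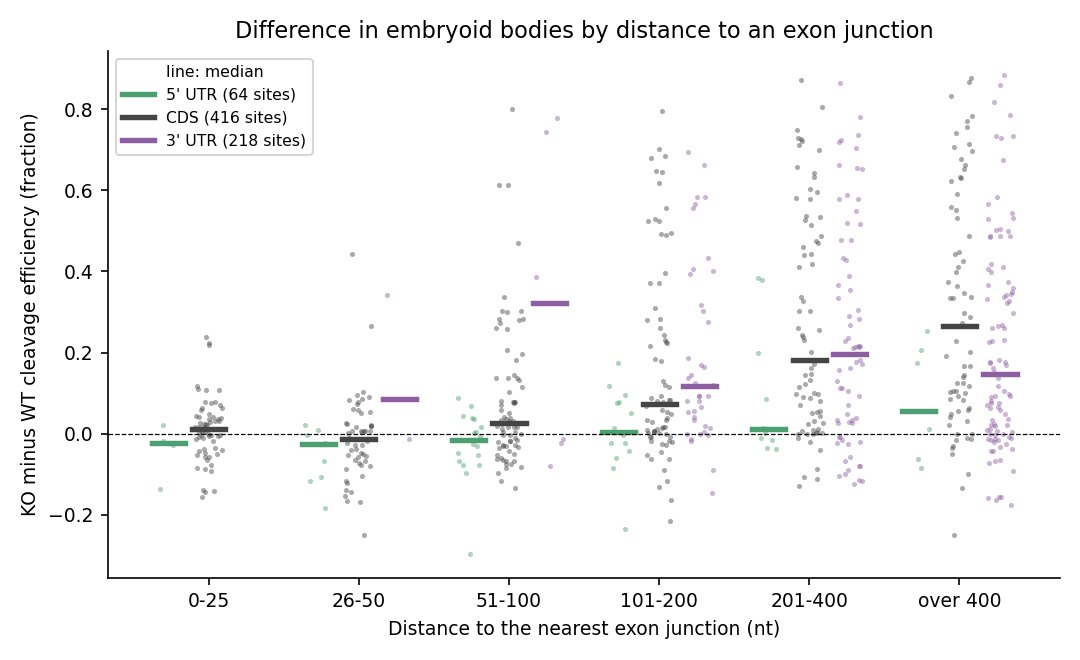
KO minus WT cleavage efficiency in EB (fraction, vertical axis) by distance to the nearest exon junction in nt (horizontal axis), 1 point per site and a bar at each median, with the 5′ UTR in green, the CDS in grey and the 3′ UTR in purple. CDS medians run from 0.0117 within 25 nt and −0.0124 from 26 to 50 nt to 0.266 beyond 400 nt; 3′ UTR bins within 100 nt hold 10 sites in all.

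The difference with distance was present within each core and within the CDS. In the CDS 34 of 195 sites within 100 nt were higher (17.4%) and 126 of 221 farther away (57.0%), the latter close to the 117 of 208 (56.2%) of 3′ UTR sites beyond 100 nt. Within 100 nt in the 3′ UTR 5 of 10 sites were higher (50%), with a median gap of 0.204 against 0.149 farther away. The difference with distance was thus not seen in the 3′ UTR, where few sites were near a junction. In the 5′ UTR none of 31 sites within 100 nt was higher and 5 were lower, while 8 of 33 farther sites were higher (24.2%). GGACA sites were higher at 64.0% of 314 beyond 100 nt and at 22.2% of 135 within it, and AGACA sites at 59 of 165 (35.8%) and 12 of 116 (10.3%). TGGACA sites were higher at 91 of 116 (78.4%) beyond 100 nt and at 13 of 38 (34.2%) within it. Their median gaps were 0.344 and 0.00469. The Trim25 site shown above, a TGGACA site with 0.780 in WT and 0.781 in KO, lay 28 nt from a junction.

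Exon length was described in the same way. Of sites in exons other than the last, those in exons of up to 200 nt were higher at 14 of 146 (9.59%), those in exons of over 200 and up to 400 nt at 13 of 86 (15.1%), of over 400 and up to 1000 nt at 35 of 85 (41.2%) and of over 1000 nt at 43 of 67 (64.2%). Last exons had 204 of 358 sites higher (57.0%), in their CDS part 73 of 125 (58.4%) and in their 3′ UTR part 128 of 221 (57.9%). The exons of over 1000 nt that were not the last thus had a share as high as that of last exons. Around the end of the CDS, sites up to 200 nt before it were higher at 43 of 92 (46.7%), sites up to 200 nt after it at 68 of 116 (58.6%) and sites over 200 and up to 400 nt after it at 23 of 35 (65.7%); beyond 1000 nt after it the count was 9 of 23 (39.1%). Exon length, distance and last exon overlap in the same sites, and their separate parts were not tested.

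For 96 of the 855 sites the stem cell columns lack at least 1 value: 37 have neither, 37 lack WT and 22 lack KO. These sites enter no comparison of stem cells. They were higher in EB KO at 52 (54.2%) and lower at 5 (5.21%), with a median gap of 0.110, while the 759 sites with a stem cell difference were higher at 306 (40.3%) and lower at 46, with a median of 0.0558. Sites with neither stem cell value were higher at 23 of 37 (62.2%) and those lacking ESC WT alone at 21 of 37 (56.8%), while those lacking ESC KO alone were higher at 8 of 22 (36.4%). The groups also differed in make-up. Of sites with a gene, 70.6% of the 85 without a stem cell difference lay over 100 nt from a junction, against 63.8% of the 657 with one. Of all 96 sites without a stem cell difference 61.5% were in the confidence classes that the authors' table calls high and highest, against 51.9% of the 759 others, and GGACA cores made up 57.3% and 61.8%. The part of this make-up in the larger share was not tested.

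Sites with neither stem cell value could be described in EB alone. Heca was at 0.250 in WT and 1 in KO (CDS, exon 2 of 4, chromosome 10, position 17635547, minus strand). Vezf1, a zinc finger transcription factor known from blood vessel development, was at 0.156 and 0.882 (CDS, exon 2 of 6, chromosome 11, position 87886779, plus strand). Spred1, an inhibitor of Ras-MAPK signalling, was at 0.269 and 0.918 at an AGACA core (CDS, exon 7 of 7, chromosome 2, position 117003210, plus strand). All 3, chosen for their wide gaps, were below 0.3 in WT and at 0.882 or above in KO.

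Further sites of this kind were in Kcnk1, a potassium channel subunit gene, at 0.273 in WT and 0.977 in KO, and in Gng2, a G protein gamma subunit gene, at 0.231 and 0.895. The zinc finger gene Zfp644 was at 0.280 and 0.933, and Ssbp3, a partner of LIM domain-binding proteins, at 0.421 and 1. The next 4 sites lacked ESC WT alone, and their ESC KO value is given beside the EB values. Chac1, an enzyme that degrades glutathione and is induced by endoplasmic reticulum stress, was at 0.0635 and 0.882 in EB and at 0.809 in ESC KO (3′ UTR, exon 3 of 3, chromosome 2, position 119179369, plus strand). The authors place this Chac1 site in their low confidence class, in which 11 of 140 sites were higher (7.86%). The share was 62 of 262 (23.7%) in the intermediate class, 236 of 392 (60.2%) in the high class and 49 of 61 (80.3%) in the highest. Dnmt3a, a DNA methyltransferase of early development, was at 0.264 and 0.926 in EB and at 0.9 in ESC KO. Cdc7, a kinase that starts DNA replication, was at 0.390 and 0.971, with 1 in ESC KO, and the HIF prolyl hydroxylase gene Egln1 was at 0.388 and 0.912, with 0.936 in ESC KO. In the other direction the gaps were smaller: Agtrap was at 0.250 in WT and 0.0857 in KO, the kinetochore motor gene Cenpe at 0.933 and 0.789, Sec16a, of the sites where cargo leaves the endoplasmic reticulum, at 0.424 and 0.290, and the tetraspanin gene Tspan4 at 0.874 and 0.757.

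**Figure D4:**
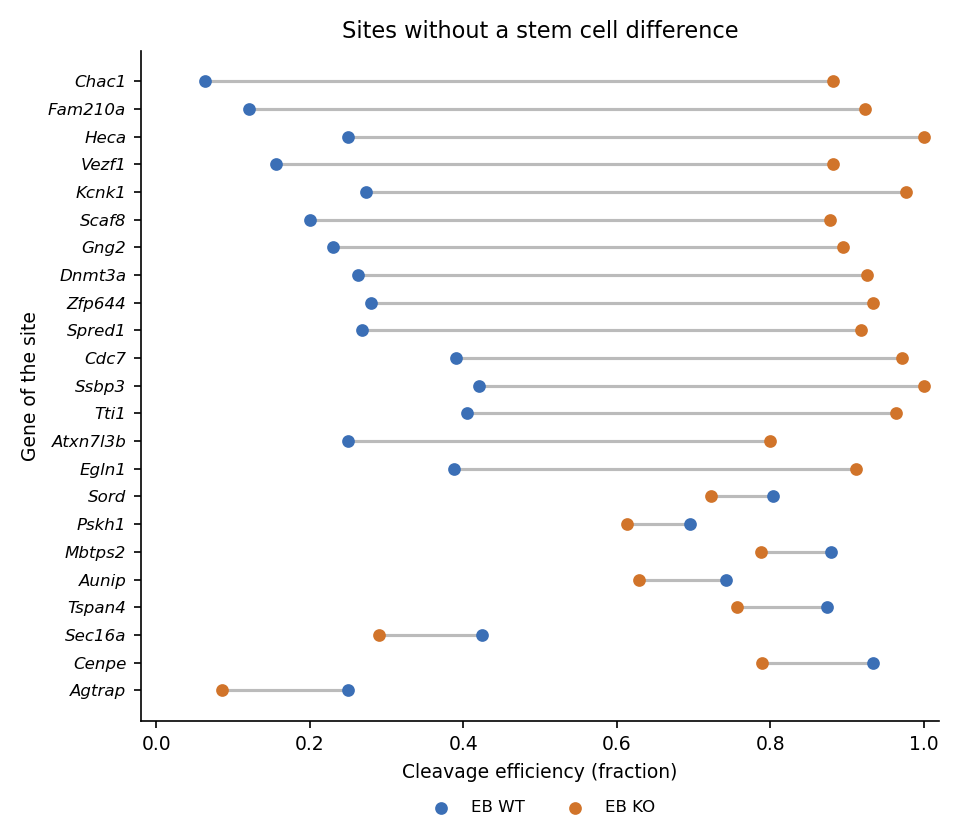
Cleavage efficiency (fraction, horizontal axis) in EB WT (blue) and EB KO (orange) for sites without a stem cell difference, 1 per gene (vertical axis): the 15 largest gaps upward, then the 8 largest downward. Gaps upward run from 0.818 in Chac1 to 0.524 in Egln1, and KO minus WT downward from −0.0802 in Sord to −0.164 in Agtrap.

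The gene groups are described by counts and medians, beside 41.9% higher, 5.96% lower and a median of 0.0638 over all 855 sites. With column medians subtracted, 3 lists kept a median above 0, those of nuclear transport, m6A and pluripotency, and the medians of the others with a site were below 0. Nuclear pore and nuclear transport was a list of 9 sites: 8 of them were higher and none lower, and the median gap was 0.374. The higher ones were Ranbp2 with both sites (0.877 and 0.207), the importin genes Ipo9 (0.781), Ipo8 (0.176) and Tnpo1 (0.171), the nucleoporin gene Nup98 (0.721) and Ranbp3, a cofactor of nuclear export, with both sites (0.488 and 0.374). The ninth site, in the nucleoporin gene Pom121, was at 0.0702 and 0.0755. In the m6A list, all of whose measured members were readers or binding proteins, 5 of 6 sites were higher (median gap 0.522), and in the pluripotency list 3 of 3, in Dnmt3a, Tet1 and Zfp281. No site of the writer complex or of the demethylases had both EB values, and the table holds no expression, so loss of Mettl3 itself was not checked.

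In developmental signalling genes 6 of 8 sites were higher, all in Fat1 and Vegfa, and 1 was lower (median gap 0.213). Fat1 encodes a giant atypical cadherin and Vegfa the vascular endothelial growth factor A. The site in Lrp5, a Wnt coreceptor gene, was lower, at 0.964 in WT and 0.833 in KO, and that of Wwtr1, an effector of the Hippo pathway, was at 0.9 and 0.867. Matrix and adhesion genes share the 3 Fat1 sites with this list; 6 of their 9 sites were higher and none lower (median gap 0.138). Nid2, which links laminin and collagen IV in basement membranes, was at 0.316 and 0.806, and Lamb1 at 0.811 and 0.949. Lamc1, Itgb1 and P4ha1 differed by −0.0384, −0.0587 and −0.0239. These 3 sites were at 0.934, 0.957 and 0.881 in WT and lay within 47 nt of a junction.

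The 3 largest lists were near the background. Among chromatin and histone modifiers 16 of 33 sites were higher (48.5%) and none lower (median gap 0.0823). Among cell cycle and mitosis genes it was 14 of 31 (45.2%), beside 1 lower (median gap 0.0905). The ubiquitin system had 12 of 29 (41.4%) higher and 2 lower. Within these, Kdm5a, a histone demethylase gene, Usp10, a deubiquitinase gene (0.348 in WT and 0.897 in KO), and Mdm4, an inhibitor of p53 (0.313 and 0.809), were among the higher sites. The list of zinc finger and other transcription factor genes counted 9 higher and 1 lower of 17. Its zinc finger genes need not all encode transcription factors: Zfp36l1, with equal values, encodes an RNA-binding protein. Zfp106 gave 2 of the higher sites (gaps of 0.384 and 0.339). Translation genes counted 8 and 0 of 16, among them the initiation factor genes Eif2a (0.0171 and 0.812), Eif4g1 (0.291 and 0.975) and Eif1a (0.316 and 0.948).

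The remaining lists with sites had between 21.4% and 37.5% of sites higher. DNA replication and repair genes had 3 of 14 higher (21.4%), with Mdc1, a mediator of the DNA damage response, at 0.270 and 0.730. Genes of endoplasmic reticulum stress and folding had 3 of 12, with Chac1 and the chaperone gene Hspa5 (0.303 and 0.893) far above the list's median of 0.0270, and the third was the basement membrane gene Hspg2, which the list's name pattern takes in. Mitochondrial genes had 3 of 12 higher and 2 lower, Golgi and vesicle traffic genes 7 of 19 (36.8%) and 2, and splicing factors and hnRNP 6 of 16 (37.5%) and 3, the last 2 shares being near the background of 41.9%. Lipid and sterol metabolism was the one list with a median below 0, at −0.0665, with 2 of 6 sites higher and 3 lower. The lower sites were in Dgat1, which completes triglycerides from diacylglycerol, the ATP citrate lyase gene Acly, and Lrp5. The Lrp5 site is that of the Wnt coreceptor gene also counted in developmental signalling. The median of the lipid list without it was not taken. No site of the germ layer and lineage list had both EB values. Of the marker genes set for pluripotent, mesoderm and endoderm, ectoderm and fibroblast cells, 0 of 22 had both EB values. The cells that made up the EB could therefore not be checked here. The RNA came from whole aggregates, so a shift in which cells contribute a transcript and a shift in cutting within cells cannot be told apart.

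**Figure D5:**
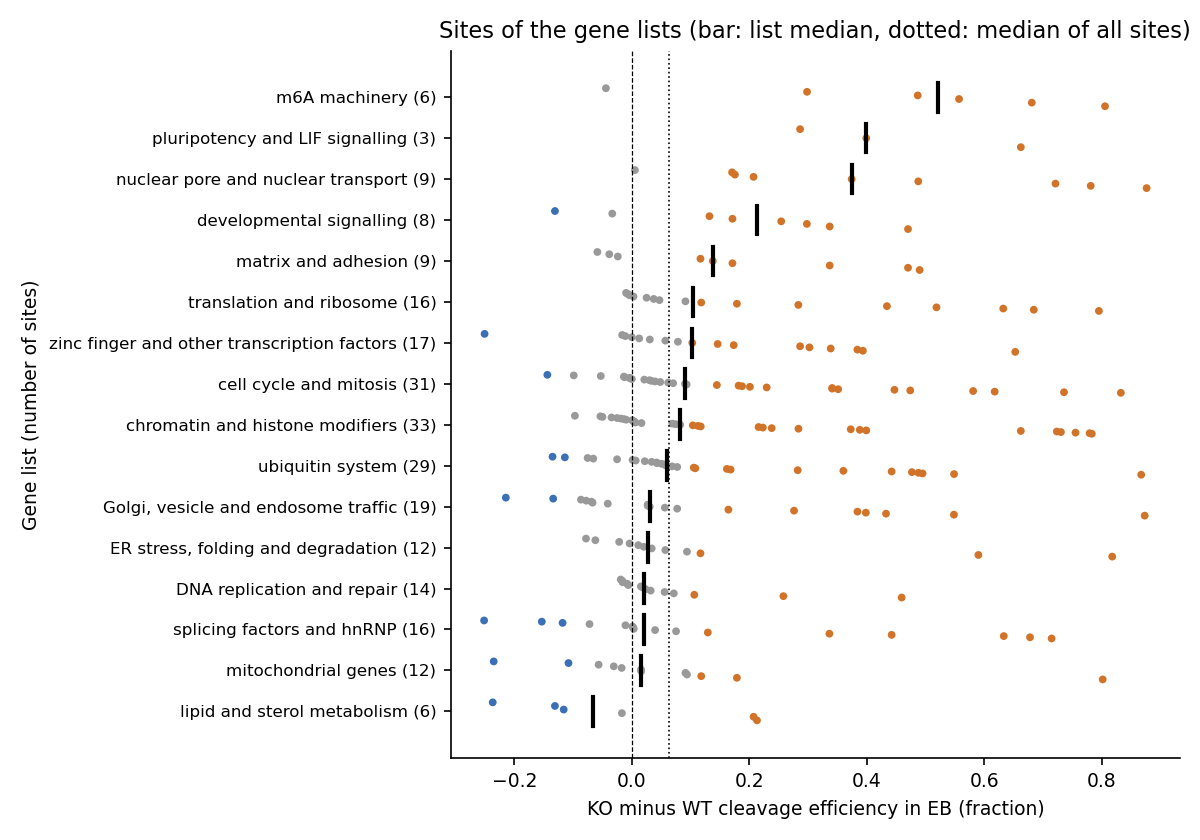
KO minus WT cleavage efficiency in EB (fraction, horizontal axis) for each site of the gene lists (vertical axis, number of sites in parentheses), with sites higher by at least 0.10 in orange, lower by at least 0.10 in blue and the rest in grey. Black bars are list medians and the dotted line is the median of all sites, 0.0638; list medians run from −0.0665 in lipid and sterol metabolism to 0.522 in the m6A list.

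Sites of the same gene often differed from each other. Of 62 genes with 2 or 3 sites, 21 had every site higher in KO, 23 had some and 18 had none. The distance between the lowest and the highest gap within a gene had a median of 0.197 (interquartile range over genes 0.0616 to 0.382) and was at least 0.5 in 11 genes. Ccnd1, which encodes cyclin D1, held both kinds of site 99 nt apart in its last exon. Its CDS site was at 0.330 in WT and 0.948 in KO, and its 3′ UTR site at 0.235 and 0.136. The sequences of this pair are shown because both have a GGACA core followed by T.

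Ccnd1, CDS site: tgtGGACAtct

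Ccnd1, 3′ UTR site: tggGGACAtgt

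The base before the core was T in the site with the wide gap and G in the other. The widest distance was in Rrbp1, where a site 873 nt from the one named above was at 0.662 in WT and 0.611 in KO. The second Sulf2 site, in the same 3′ UTR, was at 0.0259 and 0.00794, so it was hardly cut in either column. Of the Rbbp6 sites, 1007 nt apart, one was at 0.0909 and 0.958 and the other at 0.944 and 1. In Slc2a3, a glucose transporter gene, the CDS site was at 0.410 and 0.938, while its 3′ UTR sites were at 0.887 and 0.873 and at 0.882 and 0.867. Ythdf2, Fat1 and Vegfa had 3 of 3 sites higher and Mbtps2, the protease that releases SREBP and ATF6 from the membrane, had 0 of 3, at −0.0909, −0.0571 and −0.0429.

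The 51 sites that were lower in KO had smaller gaps, and 7 of them reached 0.20 (0.819% of all sites). Adk, the adenosine kinase gene, had 0.333 in WT and 0.0364 in KO (5′ UTR, exon 1 of 11, chromosome 14, position 21895485, plus strand). In ESC this site was at 0.0172 in WT and 0 in KO, so it was well cut in the EB WT column alone. Tcf3, an E-protein transcription factor gene, was at 0.938 and 0.687 (CDS, exon 17 of 19, chromosome 10, position 79875986, minus strand). Snx3, a sorting nexin gene, was at 0.873 and 0.659 (CDS, exon 1 of 4, chromosome 10, position 42222156, plus strand). Drap1, a subunit of a transcriptional repressor, was at 0.945 and 0.750, Elp3, the catalytic subunit of Elongator, at 0.605 and 0.429, and Gtf3c6, of the RNA polymerase III factor TFIIIC, at 0.891 and 0.727. Of these 6 sites, 5 were above 0.6 in WT, but they were picked from the 15 with the largest gaps downward. The WT values of the rest of the 15 ran from 0.25 in Agtrap to 0.875 in Knop1. Of the 51, 28 had an AGACA core and 23 GGACA, and 15 were in the low confidence class, 10.7% of its 140 sites. Of the 47 with a gene, 25 were in the CDS, 6 in the 5′ UTR and 10 in the 3′ UTR, and 24 lay within 100 nt of a junction. In stem cells 3 of the 46 lower sites with values differed by at least 0.10 in the same direction. Another 17 did so in the opposite direction, and 26 differed by less than 0.10. The shares of all sites that were higher or lower in ESC were not taken here, so the 3 and the 17 have no background to be read against. The EB WT value was above the ESC WT value at 41 of the 46 lower sites, with medians of 0.697 and 0.567. The KO medians were 0.569 in EB and 0.702 in ESC. Picking sites for an EB WT value above EB KO favours a high EB WT and a low EB KO value. These comparisons with ESC were thus partly set by the choice of sites, and a change with stage was not tested.

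Some sites of mid-range cutting had nearly equal values in both columns. The Bptf site, in a chromatin remodelling subunit gene, was at 0.464 in WT and 0.465 in KO, that of Tars, a threonyl-tRNA synthetase gene, at 0.477 and 0.481, and that of Kat7, a histone acetyltransferase gene, at 0.346 and 0.351. Among sites listed at 0 in both columns were those of Zfp36l1, an RNA-binding protein of mRNA decay, Med13l, of the Mediator kinase module, and Clstn3. Of the 22 sites listed at 0 in KO, 13 were also at 0 in WT.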

How the data were processed

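The labels list fragmentation, cDNA synthesis and the ligation of adapters for polyA RNA. The submitters' processing notes give STAR 2.5.3a, bedtools 2.26.0 and mm9 without saying what each was for. Each value column is a fraction between 0 and 1, the cleavage efficiency of a site in 1 group, as deposited by the authors, per the file headers. Its formula, any read minimum and the handling of the 2 EB libraries per genotype are not given in the sources consulted, so the depth behind a value is unknown. KO minus WT was taken per site with Python 3.11.15 and pandas 2.3.3 and counted at 0.10; the summaries were tested on simulated data. No test between libraries was possible with 1 value per group.

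Genes were assigned by the 11-base sequence against GENCODE M21 transcripts on the same chromosome and strand, allowing 100 nt between the matched and deposited transcript positions and 10000000 bp between the genome positions. A single gene matched 1473 of 1626 sites, and 1423 also shared the offset between builds with a site of another gene among 3 neighbours on either side and were kept; the opposite strand matched 54. Coordinates are those deposited, in mm9.

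The members, the 17 gene lists and the sizes were chosen with earlier results of these data known. Named sites were, 1 per gene, the 30 largest gaps upward and 15 downward, 15 and 8 among sites without a stem cell difference, up to 4 per list and direction, the 10 lowest in KO, the 10 nearest to equal, genes with 3 or more sites and the 6 with the widest distance between sites. Kifc1, Kdm5a, Lamb1, Lamc1, Itgb1, P4ha1, Wwtr1, Ipo8, Tnpo1, Pom121 and the second site of Ranbp2 and of Ranbp3 were chosen after their values were seen. Alternatives were a logit scale, column medians subtracted, sizes of 0.05 and 0.20, filters on KO level, mean level and class, 1 site per gene, means, exact transcript positions and the relative reduction, the last added after seeing the data.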

Additional observations from a re-analysis of the deposited data

Results flagged for a closer look

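At 19 of the 759 sites with a stem cell difference, KO and WT differed by at least 0.10 in opposite directions in EB and ESC. The difference between the stages was not tested, because each group has 1 value per site. At 17 of them KO was lower in EB and higher in ESC. The EB and ESC gaps, in that order, were largest in EB for Scaf11 (−0.252 and 0.195), Phb2 (−0.235 and 0.128), Cuedc2 (−0.184 and 0.165), Lrch4 (−0.168 and 0.121), Glg1 (−0.165 and 0.115), Knop1 (−0.157 and 0.106). They followed in Wnk1 (−0.156 and 0.113), Dlgap5 (−0.156 and 0.139), Dus1l (−0.148 and 0.145), Fnta (−0.140 and 0.123), Atp13a1 (−0.129 and 0.146), the second Scaf11 site (−0.118 and 0.250). The smallest EB gaps among them were in Rrp8 (−0.117 and 0.119), Atad5 (−0.117 and 0.103), Cth (−0.111 and 0.221), Ndufs1 (−0.108 and 0.121) and Fnbp4 (−0.105 and 0.339). KO was higher in EB and lower in ESC at a site of Pmf1 (0.211 and −0.182) and a site of Ranbp2 (0.207 and −0.121). Of the 17 sites lower in EB, Scaf11 holds 2, in the same exon. At Fnbp4 the WT value was 0.905 in EB and 0.498 in ESC, while KO was at 0.8 and 0.837. The 0.219 given above for mid-level sites between the KO columns was passed in EB by the first Scaf11 site and Phb2 alone. In ESC it was passed by the second Scaf11 site, Cth and Fnbp4 alone. Picking sites for opposite gaps favours extreme values in each column, and the shares of all sites higher or lower in ESC were not taken.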

How the results depend on the processing

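No paired analysis was possible because the table gives 1 value per group, and leaving out each library was not run for the same reason. Subtracting each column's median, which takes 0.271 off every gap, turned the median over sites from 0.0638 to −0.208. It left 20.0% of sites higher and 66.4% lower, and 21.9% higher among sites without a stem cell difference. The medians of all lists but nuclear transport, m6A and pluripotency were then below 0, and any site with a smaller upward gap than 0.271 turned downward. Of lists and sites named by the rule whose gap was at least 0.10, it reversed the list medians of developmental signalling (−0.0585), matrix and adhesion (−0.133), translation (−0.167) and transcription factors (−0.168), and single sites in Mrpl44 (−0.0924), Sqle (−0.0640), Vegfa (−0.139 and −0.0170), Ahnak (−0.128), Trp53bp1 (−0.0132), Top1 (−0.165), Pla2g12a (−0.0582), Arid1a (−0.0331), Hspg2 (−0.154), Mrpl33 (−0.153) and Fat1 (−0.10). The cause was not tested beyond the subtraction itself. A size of 0.20 left 0.819% of sites lower and a size of 0.05 gave 13.5%. The median over sites was 0.0901 for sites with KO of at least 0.20, 0.0845 for a mean level from 0.05 to 0.95, 0.0937 without the low class and 0.157 as a mean. The gap of GGACA over AGACA, 0.0865, was 0.162 with KO of at least 0.20, 0.128 without the low class and 0.150 as a mean. The gap of sites over 100 nt from a junction over nearer ones, 0.120, was 0.183, 0.165 (mean level from 0.05 to 0.95) and 0.187 (as a mean). The logit scale, the relative reduction, 1 site per gene and exact transcript positions reversed none of the results they were run for. For a single site none of these settings could change the direction. A list or site with a gap below 0.10 in size was not counted as reversed under any setting. Unknown depth limits every value: no site carries an interval.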

Other observations

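Of the 1626 sites, 439 had an EB WT value and no EB KO value, 63 had KO and no WT, and 269 had neither. The median WT value was 0.531 at the 439 sites and 0.547 at the 855 sites with both values. The median KO value was 0.824 at the 63 sites and 0.818 at the 855. GGACA cores made up 62.4% of the 439 sites and 61.3% of the 855.

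The side of the junction differed in its counts. From 51 to 100 nt, sites downstream of their nearest junction were higher in KO at 19 of 52 (36.5%) and sites upstream of it at 9 of 56 (16.1%). Between 100 and 200 nt the counts were 49 of 94 (52.1%) downstream and 9 of 42 (21.4%) upstream. Beyond 400 nt they were 91 of 156 (58.3%) and 15 of 25 (60.0%). The downstream group holds the last exons, and the part of that was not tested.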
